A study of Mus musculus with 8 samples.

Results

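The baseline of the mouse outer medullary collecting duct on normal salt was described from 4 of the 8 RNA-seq libraries of the series. They are the 4 libraries whose diet label and column name give normal salt, and the 4 high-salt libraries were not used. All 55291 gene features were read in each. The mice were C57BL/6J, an inbred laboratory strain, and ate food with 0.3% salt over 3 days. Kidneys were treated with liberase, a tissue-digesting enzyme blend, the ducts (OMCD in the labels) were dissected from them, and 100 to 120 ducts of 1 mouse were pooled for each library. A stranded kit for mRNA was used. The labels name no age, sex or hour of dissection. The columns carry the numbers 1, 2, 3 and 6, and the libraries are called by these numbers. Since each library is 1 mouse, the spread between libraries holds differences between mice, dissections and library preparations together. There was 1 group, so levels and spreads are described and no test between groups was run. Dixon's outlier criterion was used only to flag single libraries.

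The collecting duct makes the last adjustments to urine. Its principal cells take up sodium through the epithelial sodium channel ENaC, drive that uptake with the sodium pump (Na,K-ATPase) on the blood side, release potassium through the channel ROMK and take up water through aquaporins, under the control of vasopressin and aldosterone. Its intercalated cells move acid and base: type A cells secrete protons with a vacuolar proton pump and return bicarbonate to the blood through the anion exchanger AE1, and type B cells work in the opposite direction with the exchanger pendrin.

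Recovered totals were 64.8, 85.4, 94.1 and 78.8 M estimated counts in libraries 1, 2, 3 and 6, a mean of 80.8 ± 12.4 M (SD, n = 4, as for every error given here). Levels are in TPM, in which the counts of a gene are divided by its length so that genes can be set side by side within a library. A gene was called detected at 1 TPM or more in all 4 libraries. By this rule 12426 features were detected, of which 11057 were protein-coding, while 28306 were listed at 0 in all 4 libraries. A mean of at least 10 TPM was reached by 8806 features, at least 100 TPM by 1575 and at least 1000 TPM by 109. Library 1 was low in long transcripts and high in markers of interstitial and blood cells. Library 6 was highest in most of the detected immediate early and circadian genes. Where leaving out 1 library moves a mean of 1 TPM or more by more than 1.5-fold, the mean is given with and without that library. The 100 most abundant features held 34.5% ± 1.47 of all TPM and the 1000 most abundant held 65.7% ± 2.07.

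The 5 most abundant features were genes of the mitochondrial genome. mt-Co1, a subunit of cytochrome c oxidase, had a mean of 25393 ± 767 TPM and mt-Co2, another subunit of the same enzyme, had 23189 ± 2786 TPM. mt-Atp8 and mt-Atp6, subunits of the mitochondrial ATP synthase, had 18944 ± 1961 and 18905 ± 1948 TPM. Their annotated genes overlap on the mitochondrial chromosome (M:7766-7969 and M:7927-8607, plus strand, mm10), so reads from the shared bases cannot be told apart. The 37 features of the mitochondrial genome held 15.8% ± 0.917 of TPM, and 6.85% ± 1.15 of CPM, which scales counts by the library total without a correction for length. In CPM mt-Atp8, of 204 bases, had a mean of 635, against 5365 for mt-Atp6, of 681 bases. The place of mt-Atp8 in the ranking thus depends on the correction for its short length. Several further abundant features were uncertain and were chosen for mention after their values were seen. Gm28437 (mean 13317 TPM), Gm10925 (mean 5906 TPM), Gm28661 and Gm29216 are pseudogenes that lie together on chromosome 1 (Gm28437 starts at 24613189 and Gm29216 ends at 24616197, minus strand), in a nuclear copy of mitochondrial DNA, and can share reads with the mitochondrial genes. Gm29216 was listed at 6633 TPM in library 1 and at 147, 116 and 117 TPM in libraries 2, 3 and 6, so that its mean was 127 in place of 1753 TPM without library 1. The ribosomal RNA feature CT010467.1 was likewise highest in library 1, at 7355 TPM against 2179 to 3749 TPM in the others.

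Among nuclear protein-coding genes Aqp2, the water channel that vasopressin moves to the luminal membrane of principal cells, was the most abundant and ranked 7 of all features. It had 10087, 14833, 13146 and 9174 TPM in libraries 1, 2, 3 and 6, a mean of 11810 ± 2636 TPM. Every library therefore held more Aqp2 than any other nuclear protein-coding gene, although the libraries themselves differed 1.62-fold. The next were housekeeping genes and genes of the duct. Atp5b, a subunit of the mitochondrial ATP synthase, had 4328 ± 506 TPM, Tmsb4x, which binds actin monomers, had 4181 ± 508 TPM and the membrane protein Itm2b had 3922 ± 180 TPM. Eef1a1, a translation elongation factor, had 3653 ± 163 TPM. Hsd11b2, the enzyme that inactivates glucocorticoids and so keeps the mineralocorticoid receptor free for aldosterone, had 3661, 3502, 3550 and 3736 TPM. With a highest value 1.07 times the lowest it was the steadiest of the 20 most abundant nuclear genes in TPM. In CPM it was not, with a coefficient of variation of 0.0754 against 0.0543 for Eef1a1. Cdh16, the kidney cadherin, had 3346 ± 344 TPM. The remaining genes of the 20 most abundant were Ly6e, Aldoa, Fxyd4, Atp1b1, Chd9, Aqp3, Ldhb, Pdzk1ip1, Ppia, Actg1, Aqp6, Fth1 and Igfbp7, between 3463 and 2264 TPM. Aldoa and Ldhb are enzymes of glycolysis and lactate handling, Fth1 stores iron and Actg1 is a cytoplasmic actin. The rank of Chd9, a chromatin remodeller with 3039 ± 176 TPM, is uncertain. Its longest annotated transcript has 12008 bases, but its ratio of CPM to TPM was that of a transcript 14.9 times shorter, relative to the median over genes, so its TPM was computed over a much shorter length. Of the 1433 protein-coding genes at 100 TPM or more, 56 had a gap of at least 4-fold between these lengths.

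The label of the tissue was checked against markers of the duct and of neighbouring cells. All 19 principal cell markers, all 12 markers shared by intercalated cells, all 6 type A markers and all 7 type B markers were detected in every library. The principal cell list summed to 25371, 31687, 29450 and 25775 TPM in libraries 1, 2, 3 and 6. The shared intercalated list summed to 6044, 5731, 5932 and 6436 TPM and varied 1.12-fold. Type A markers summed to 3190, 5837, 5064 and 4787 TPM, lowest in library 1, and type B markers to 622, 593, 524 and 578 TPM. Of the type B sum, its most abundant member Spink8, a protease inhibitor gene, gave 329, 273, 307 and 159 TPM. The type B sum need not follow the other members. In RNA from pooled ducts, fewer cells of a type and less RNA per cell cannot be told apart, so these sums are not cell numbers. Library 1 was also low in long transcripts in general, as given below, and the part of length in its type A sum was not tested.

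**Figure D1:**
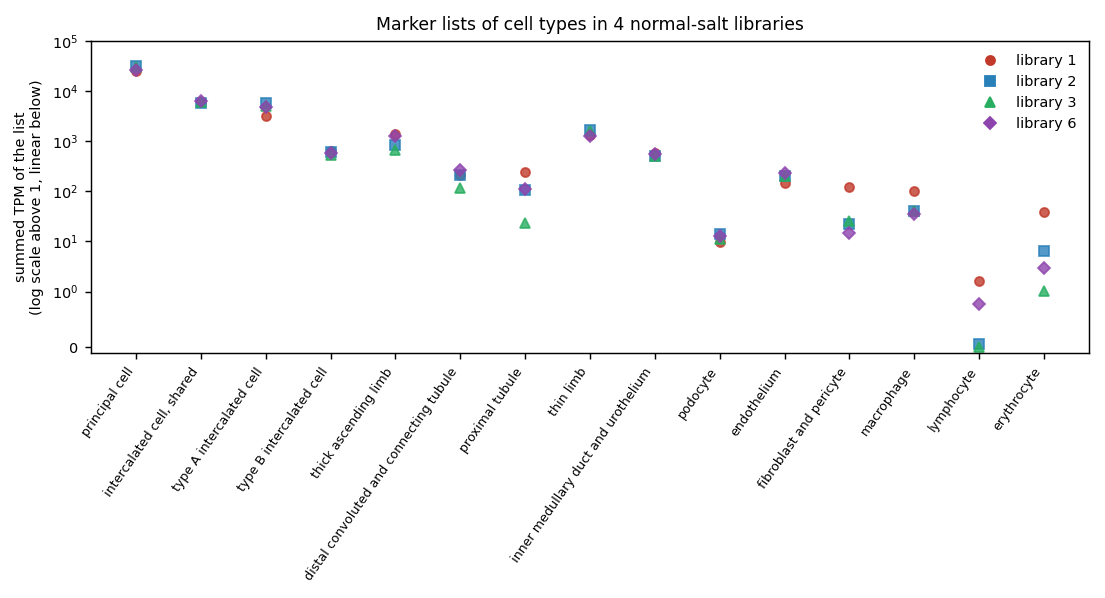
Summed TPM of each cell type marker list (horizontal axis) in each of the 4 normal-salt libraries (1 point per library; vertical axis in TPM, log scale above 1 and linear below). Principal cell markers summed to between 25371 and 31687 TPM and intercalated cell markers to between 5731 and 6436 TPM, while fibroblast, macrophage and erythrocyte lists were highest in library 1.

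The thick ascending limb runs beside the duct in the outer medulla. Its list had 12 of 14 members detected and summed to 1362, 833, 666 and 1291 TPM. Umod, the uromodulin of that segment, had 744, 344, 223 and 565 TPM, and Slc12a1, its sodium-potassium-chloride cotransporter, had 111, 78.3, 54.3 and 129 TPM. Both were lowest in library 3. The thin limb list summed to between 1235 and 1659 TPM, but its leading members Cryab (814 ± 109 TPM), a small heat shock protein, and Cldn4 (315 ± 91.4 TPM), a tight junction protein, are also expressed in collecting ducts. Of the distal convoluted and connecting tubule list, 7 of 10 members were detected and the sum was 118 to 263 TPM. The sodium-chloride cotransporter Slc12a3, its defining gene, was listed at 0 in 3 libraries and at 0.070 TPM in library 3, and Pvalb reached at most 0.065 TPM. Calb1, a calcium-binding protein of the connecting tubule, had 53.2, 57.4, 36.3 and 108.3 TPM. Only 3 of 12 proximal tubule markers were detected, and the list summed to 245, 105, 23.8 and 111 TPM. Kap, a kidney androgen-regulated protein, had 218, 80.3, 6.83 and 92.5 TPM and made up most of the sum in libraries 1, 2 and 6 but not in library 3, and without library 1 its mean was 59.9 in place of 99.3 TPM and that of the list was 80.1 in place of 121 TPM. Lrp2 and Slc34a1, the megalin and the phosphate transporter that define proximal tubule, reached at most 0.481 and 0.537 TPM.

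Blood vessel and interstitial markers were low. The endothelial list, 11 of 11 members detected, summed to 146, 205, 200 and 234 TPM and was led by Plvap, a protein of fenestrated endothelium, with 88.4 ± 15.1 TPM. The podocyte list summed to 9.87 to 13.8 TPM, with Nphs1 at 0.089 TPM or less. Lymphocyte markers summed to 1.62 TPM or less. The fibroblast list, 4 of 11 members detected, summed to 119, 22.3, 24.95 and 14.7 TPM, so library 1 held most of it. In the same library the macrophage list, 6 of 11 detected, summed to 102 TPM against 34.5 to 41.3 TPM in the others. The erythrocyte list, 0 of 5 detected in all 4 libraries, summed to 37.9 TPM in library 1 against 1.02 to 6.43 TPM. Without library 1 the mean of the fibroblast list was 20.7 in place of 45.2 TPM and that of the erythrocyte list was 3.47 in place of 12.1 TPM. Of the inner medullary duct and urothelium list, 4 of 10 members were detected and the sum was 501 to 567 TPM. Krt7, a simple-epithelium keratin, led it with 470 ± 43.7 TPM, Fxyd3, a regulator of the sodium pump, had 27.9 ± 8.76 TPM and the keratin Krt19 had 8.71 ± 2.32 TPM. Slc14a2, given with the transporters, reached 31.7 TPM in 1 library. Upk3a, a uroplakin, had 0.108 TPM or less and Krt5, a basal-cell keratin, had 0.050 TPM or less. Of these genes, Lrp2, Slc34a1, Slc12a3, Pvalb, Nphs1, Upk3a and Krt5 were chosen after their values were seen.

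Water channels were dominated by Aqp2, which held 65.5% ± 2.57 of the TPM of the 11 aquaporin genes. Aqp3, the water and glycerol channel of the basolateral membrane, had 2561, 3768, 3156 and 2632 TPM. Aqp6, an anion-conducting aquaporin of intracellular vesicles in type A cells, had 1985, 3411, 2713 and 2601 TPM. The ranges of Aqp3 and Aqp6 overlapped, although Aqp3 was the higher in 4 of 4 libraries. Aqp4, the other basolateral water channel, had 265, 524, 534 and 376 TPM and lay below them in every library. Aqp2, Aqp3, Aqp6 and Aqp4 were all higher in libraries 2 and 3 than in libraries 1 and 6. Aqp1, the water channel of proximal tubule and thin descending limb, had 17.8, 34.8, 100 and 45.3 TPM, and its mean was 32.6 in place of 49.6 TPM without library 3. Aqp11 had 2.20 ± 0.556 TPM, and the other 5 aquaporins were below a mean of 1 TPM.

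The 250 bases before the RefSeq transcription start of Aqp2 and Aqp3 (GRCm38.p6) are shown because these genes lead the channels. Capitals mark each match to 3 words that were searched on both strands. The TATA box was searched as TATAAA. The E-box was searched as CACGTG, which reads alike on both strands. The core of the cAMP response element was searched as TGACG, which reads CGTCA on the opposite strand. A match to 1 word can share bases with a match to another, and none did so in the windows shown. Aqp2 lies on the plus strand, and the window is chr15:99578806-99579055. Aqp3 lies on the minus strand, and the window is chr4:41098184-41098433.
Aqp2: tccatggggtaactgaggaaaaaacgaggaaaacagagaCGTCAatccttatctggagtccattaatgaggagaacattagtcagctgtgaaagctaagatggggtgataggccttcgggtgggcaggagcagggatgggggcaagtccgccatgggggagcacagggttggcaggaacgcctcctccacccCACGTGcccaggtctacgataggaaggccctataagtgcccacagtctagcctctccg
Aqp3: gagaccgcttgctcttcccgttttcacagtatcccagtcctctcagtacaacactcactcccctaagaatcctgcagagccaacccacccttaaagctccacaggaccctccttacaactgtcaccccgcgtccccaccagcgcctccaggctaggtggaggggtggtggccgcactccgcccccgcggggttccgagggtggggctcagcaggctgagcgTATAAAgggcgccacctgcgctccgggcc
The Aqp2 window held CGTCA 211 bases and CACGTG 58 bases before the start, and the Aqp3 window held TATAAA 29 bases before the start. Over all 32851 RefSeq promoter windows of this length, 12.4% held TATAAA, 6.02% CACGTG and 17.8% TGACG. Over the 11396 windows of detected protein-coding genes the shares were 6.12%, 8.40% and 26.9%. A match describes these letters and is not a shown binding site.

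Sodium entry in principal cells runs through ENaC, whose 3 subunits are encoded by Scnn1a, Scnn1b and Scnn1g. Scnn1a, the alpha subunit, had 559, 493, 522 and 529 TPM and ranked 249 of all features. Scnn1b, the beta subunit, had 400, 318, 341 and 514 TPM, and Scnn1g, the gamma subunit, had 316, 354, 318 and 472 TPM. The alpha subunit varied 1.13-fold between libraries, whereas the beta and gamma subunits varied 1.62-fold and 1.49-fold, both highest in library 6. The range of each subunit overlapped that of the next. They held 41.0%, 30.1% and 28.1% of the TPM of the 23 sodium channel genes, and the next, the acid-sensing channel Asic1, had 3.30 ± 1.08 TPM.

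Kcnj1, which encodes ROMK, had 638, 881, 879 and 727 TPM and held 53.7% of the TPM of the 86 potassium channel genes, of which 14 were detected. Kcnj16, a subunit of basolateral potassium channels, had 215 ± 39.3 TPM, and Kcnj10, its usual partner, had 74.6 ± 7.15 TPM. Kcnj16 is expressed in the thick ascending limb as well. Kcnq1, a voltage-gated channel, had 174 ± 13.4 TPM and its accessory subunit Kcne1 had 40.2 ± 8.57 TPM. Kcnk1, a background potassium channel, had 104 ± 8.61 TPM. Kcnj1 lay above Kcnj16 without overlap, and the ranges of Kcnj16 and Kcnq1 overlapped. Kcnma1, the large-conductance potassium channel BK alpha subunit known for flow-induced potassium secretion, was looked up after the ranks were seen and had 1.38, 0.284, 0.321 and 0.144 TPM, so it did not reach the detection level.

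Of the 33 chloride channel genes 18 were detected. Bsnd (barttin), an accessory subunit of chloride channels in distal segments and intercalated cells, had 67.4 ± 6.50 TPM. The endosomal exchangers Clcn3 and Clcn4 had 52.7 ± 10.9 and 48.6 ± 7.92 TPM, Ano6, a membrane scramblase, had 51.2 ± 13.1 TPM, and Clcc1 and Clcn7 had 44.6 ± 3.85 and 39.5 ± 6.52 TPM. Cftr, chosen after its value was seen, was listed at 0 in 3 libraries and at 0.015 TPM in library 1.

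Mcoln3, a cation channel of endosomes and lysosomes, led the calcium and TRP channels with 452, 672, 609 and 633 TPM and lay above all others in every library. The mechanosensitive channels Piezo1 (140 ± 16.8 TPM) and Trpv4 (131 ± 11.4 TPM) came next, with ranges that overlapped, followed by Pkd2, the polycystin-2 of primary cilia, with 65.9 ± 14.9 TPM. Of the 66 genes in this family 21 were detected. Gjb1 (connexin 32), a gap junction protein, had 75.5 ± 7.98 TPM and held 76.3% of the TPM of the 23 connexin and pannexin genes. Gjc1 had 12.6 ± 1.33 TPM and Panx1 had 4.43 ± 1.73 TPM.

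**Figure D2:**
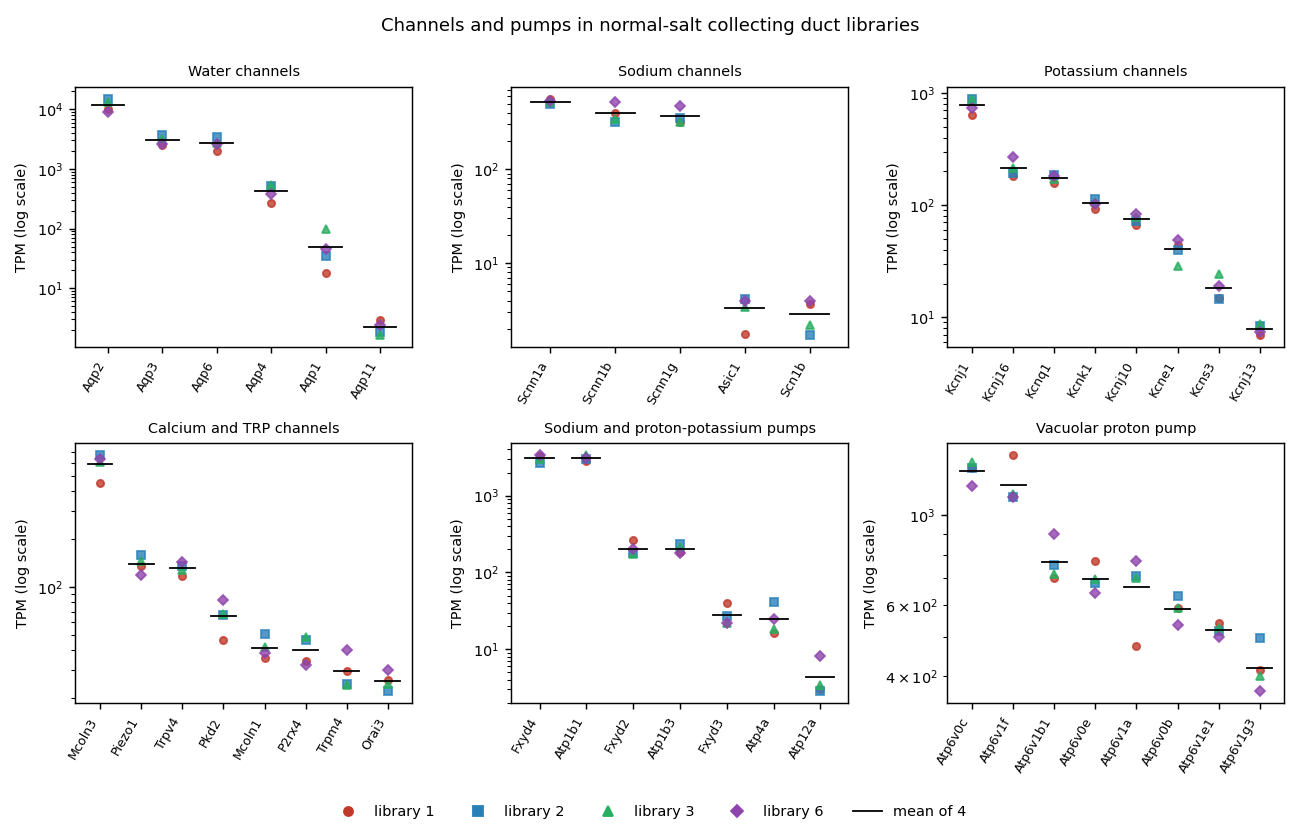
TPM (log scale) of leading members of 6 families of channels and pumps; each point is 1 of the 4 normal-salt libraries and each bar is their mean. Aqp2, with a mean of 11810 TPM, stood above every other channel, Scnn1a had the narrowest spread of the 3 ENaC subunits, and Kcnj1 and Mcoln3 lay above the other members shown of their families without overlap.

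Among genes of the sodium pump, Atp1b1, a beta subunit, had 2855, 2966, 3338 and 3064 TPM, and Fxyd4 (CHIF), a regulator of the pump in the collecting duct, had 3253, 2659, 2993 and 3356 TPM. The ranges of Fxyd4 and Atp1b1 overlapped. Fxyd4 had the higher mean over 4 libraries, but Atp1b1 led without library 1, without library 6 and in CPM. Fxyd2, the gamma subunit, had 204 ± 40.8 TPM and the second beta subunit Atp1b3 had 202 ± 25.1 TPM. The proton-potassium pumps were much lower: Atp4a, the gastric form, had 16.3, 40.7, 18.4 and 24.9 TPM, and Atp12a, the colonic form, had 3.00, 2.83, 3.41 and 8.23 TPM.

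The vacuolar proton pump, which acidifies urine from type A cells, had 22 of 25 genes detected and summed to 8601, 9054, 8907 and 8662 TPM, a range of 1.05-fold. Atp6v0c, the proton-carrying ring subunit, had 1287 ± 73.1 TPM and Atp6v1f had 1190 ± 146 TPM. Atp6v1b1, the B subunit of the kidney and inner ear form, had 701, 753, 717 and 897 TPM. The subunits known from intercalated cells exceeded their widely expressed relatives, which were chosen after their values were seen. Atp6v1b1 had a mean of 767 TPM against 78.0 TPM for Atp6v1b2, Atp6v0a4 had 289 TPM against 42.6 TPM for Atp6v0a1, and Atp6v0d2 had 291 TPM against 166 TPM for Atp6v0d1. None of these pairs overlapped in range. Atp6v1g3 and Atp6v1c2, also forms of intercalated cells, had 420 ± 55.8 and 287 ± 28.0 TPM.

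Acid and base transport held the most abundant transporters. Rhcg, an ammonia channel of the collecting duct, had 1717, 1431, 1544 and 1667 TPM and ranked 54 of all features, and its relative Rhbg of the basolateral membrane had 376 ± 41.7 TPM. Slc4a1, which encodes AE1, had 730, 1507, 1523 and 1301 TPM. It was lowest in library 1, as were its fellow type A markers Aqp6, Kit (143, 197, 199 and 251 TPM), a receptor tyrosine kinase, Slc26a7 (65.4, 104, 131 and 108.3 TPM), an anion exchanger, and Adgrf5 (184, 480, 370 and 369 TPM), an adhesion receptor. The longest transcripts of Slc4a1, Kit, Slc26a7 and Adgrf5 have 4545, 5241, 5165 and 8535 bases, and that of Aqp6 has 2060. Library 1 was low in long transcripts in general, as given below, and the part of length here was not tested. Car2, the cytosolic carbonic anhydrase that supplies protons and bicarbonate, had 1565, 1283, 1393 and 1439 TPM and held 73.6% of the TPM of the 16 carbonic anhydrase genes. Car12, a membrane-bound form, had 380 ± 81.5 TPM. Car15, also membrane-bound, had 192 TPM in library 2 and 29.9 to 37.7 TPM in the others, and its mean was 34.0 in place of 73.5 TPM without library 2. Of the type B genes, Slc26a4, which encodes pendrin, had 67.9, 78.5, 39.2 and 85.9 TPM, and Slc4a9, a basolateral exchanger of type B cells, had 110, 113, 73.5 and 196 TPM. Both were lowest in library 3, and Spink8, a protease inhibitor gene on the type B list, had 329, 273, 307 and 159 TPM and did not follow them. The mean of Slc4a1 was 1265 TPM and that of Slc26a4 was 67.9 TPM, and the ranges lay far apart.

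Of the 313 solute carrier and Rh genes, those of acid and base transport included, 143 were detected. Slc2a1 (GLUT1), the basolateral glucose carrier, had 333 ± 36.6 TPM, the heme carrier Slc48a1 had 210 ± 24.3 TPM, and the choline carriers Slc44a1, Slc44a3 and Slc44a2 had 140 ± 32.3, 120 ± 16.1 and 93.9 ± 12.9 TPM. Slc22a17, a receptor for lipocalin-2, had 126 ± 14.8 TPM, and Slc27a1, a fatty acid carrier, had 123.2 ± 33.6 TPM. The copper carrier Slc31a1 had 112 ± 13.6 TPM. Of the 46 ABC transporters 21 were detected, led by the peroxisomal Abcd3 (136 ± 9.69 TPM). Abca3, a lipid transporter, had 64.4 TPM in library 1 and 89.3 to 92.5 TPM in the others. Of calcium and copper pumps, Atp2c1 of the Golgi had 125 ± 31.9 TPM and Atp2a2 of the endoplasmic reticulum had 78.9 ± 16.8 TPM. The copper pump Atp7a had 14.9 TPM in library 1 and 58.1 to 64.9 TPM in the others. Slc14a2, the urea transporter gene of the inner medullary duct and thin limb, had 0.129, 31.6, 31.7 and 8.504 TPM, while its neighbour Slc14a1, chosen after its values were seen, had 1.82 to 1.97 TPM.

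G protein-coupled receptors had 63 of 304 members detected. Adgrg1, an adhesion receptor, led with 752, 922, 961 and 1183 TPM. Avpr2, the vasopressin receptor that raises cAMP in principal cells, had 645, 562, 585 and 512 TPM and ranked 222 of all features. Adgrg1 and Avpr2 did not overlap with each other, and Avpr2 lay above the third, Adgrf5, without overlap. From Adgrf5 down to Fzd1, the sixteenth, each receptor overlapped its neighbour. Avpr2 was the only one of the 8 leading receptors with its highest value in library 1. Gprc5c and Gprc5b, orphan receptors, had 332 ± 79.1 and 156 ± 34.7 TPM. Ptger1, a receptor for prostaglandin E2 that lowers sodium uptake in the duct, had 135, 253, 190 and 165 TPM, and the prostaglandin F receptor Ptgfr had 71.9 ± 13.9 TPM. Fzd4, a Wnt receptor, had 132 ± 35.7 TPM, and Ackr3, a scavenger of chemokines, had 125 ± 28.1 TPM. P2ry14, a receptor for nucleotide sugars on intercalated cells, had 105 ± 19.9 TPM and Adora1, an adenosine receptor, had 93.4 ± 28.4 TPM. Oxgr1, the oxoglutarate receptor of intercalated cells, had 99.5 TPM in library 6 and 38.8 to 48.8 TPM in the others. Avpr1a, the vasopressin receptor that acts through calcium, had 53.6, 62.5, 49.1 and 58.3 TPM and lay below Avpr2 in every library.

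Of receptor tyrosine kinases, 29 of 54 were detected. Ddr1, a collagen receptor, had 176, 215, 206 and 232 TPM, Kit followed, and Met, the receptor of hepatocyte growth factor, had 82.6, 235, 211 and 200 TPM. These leaders overlapped, and Fgfr2, a fibroblast growth factor receptor, had 68.1 ± 8.61 TPM and lay below all of them. Cytokine, TGF-beta, Notch and hedgehog receptors, 45 of 99 detected, were led by Epor, the erythropoietin receptor, with 61.6, 132, 89.8 and 98.1 TPM, and by Tgfbr2, a receptor of TGF-beta, with 56.7, 97.9, 90.6 and 110 TPM. The 2 overlapped, and without library 2 Tgfbr2 led. Bmpr1b, a receptor of bone morphogenetic proteins, had 32.6 TPM in library 1 and 66.1 to 68.3 TPM in the others.

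Nuclear receptors had 29 of 47 members detected. Nr3c2, the mineralocorticoid receptor through which aldosterone acts, had 33.9, 58.0, 53.4 and 74.4 TPM, lowest in library 1 and highest in library 6. Nr3c1, the glucocorticoid receptor, was chosen after its value was seen and had 6.66, 13.1, 13.3 and 16.2 TPM, below Nr3c2 in every library and in the same order except for libraries 2 and 3. Long transcripts, such as that of Nr3c2 (5916 bases), were in general low in library 1 and high in library 6, as given below. The part of length in the order of these receptors was not tested. Higher means were reached by Nr1d1, a repressor of the circadian clock, with 89.98, 135, 126 and 286 TPM, and by Nr4a1, an immediate early gene, with 40.6, 109, 67.4 and 362 TPM. Both were highest in library 6. Without it Nr4a1 averaged 72.3 TPM in place of 145 TPM, and Thra, the thyroid hormone receptor alpha with 131 ± 14.3 TPM over all 4 libraries, led the family. Esrra (127 ± 14.1 TPM), a regulator of mitochondrial genes, and Nr2f6 (123.3 ± 11.2 TPM) came next. Nr1h2, the liver X receptor beta, had 93.7, 97.0, 100 and 98.6 TPM and was the steadiest of the 8 leading nuclear receptors. Sgk1, the kinase that aldosterone raises and that keeps ENaC at the membrane, was chosen after its values were seen and had 319, 232, 399 and 130 TPM. The order of the libraries in Sgk1 was not that of Nr3c2, and Scnn1a varied far less than either. The glucocorticoid and mineralocorticoid target list had 19 of 19 members detected and summed to 6072, 6849, 7081 and 6419 TPM.

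**Figure D3:**
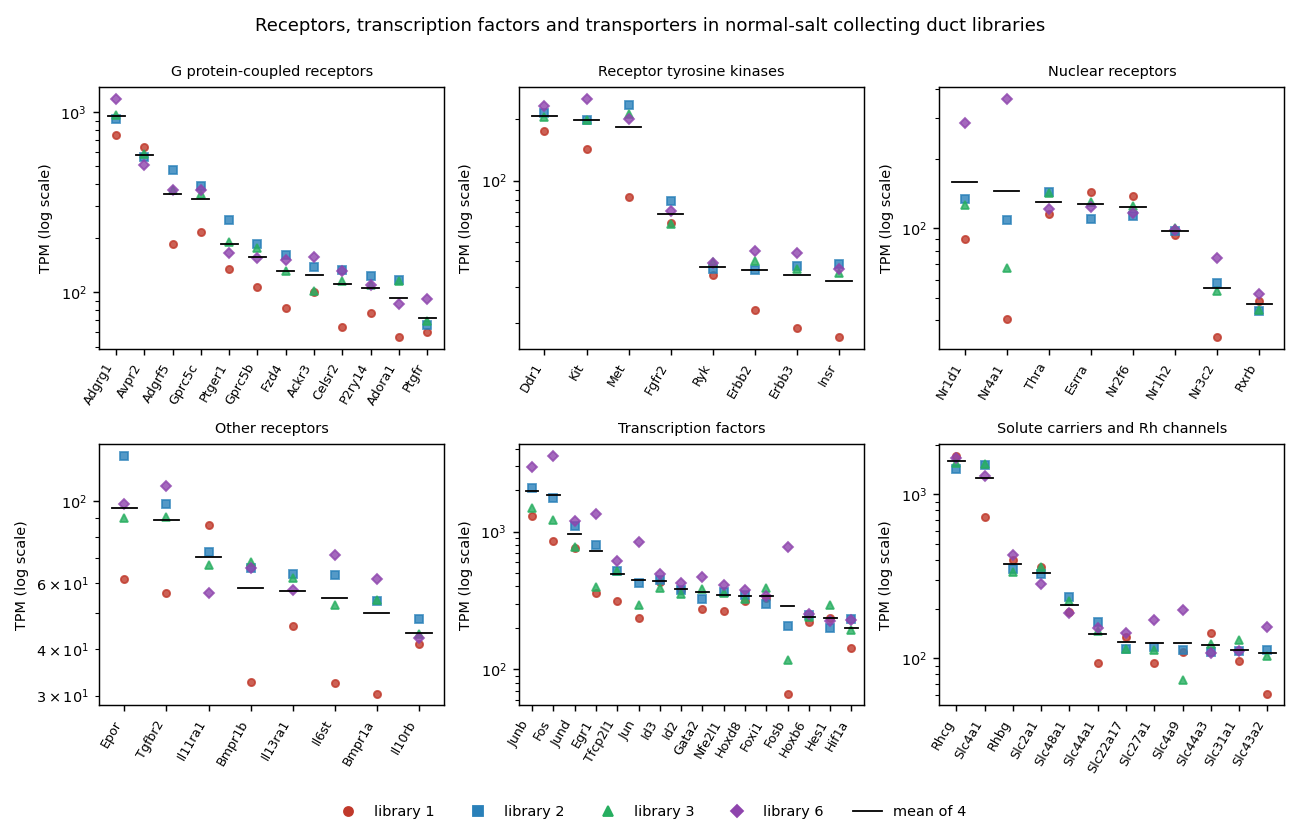
TPM (log scale) of the leading receptors, transcription factors, solute carriers and Rh channels; each point is 1 of the 4 normal-salt libraries and each bar is their mean. Avpr2 and Nr1h2 varied little in TPM, Nr4a1, Fos and Fosb were highest in library 6, and Met, Bmpr1b and Slc4a1 were lowest in library 1. In CPM the coefficient of variation was 0.167 for Avpr2 and 0.0568 for Nr1h2.

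Transcription factors had 258 of 536 members detected. The highest means belonged to immediate early genes, Junb with 1954 ± 742 TPM and Fos with 1838 ± 1194 TPM, which are described with the spread between libraries. Of the factors known for duct identity, Tfcp2l1, which is needed for the intercalated and principal cell pattern, had 313, 520, 517 and 609 TPM and Foxi1, the master regulator of intercalated cells, had 328, 296, 388 and 343 TPM. Gata2, a known regulator of Aqp2, had 274, 323, 380 and 469 TPM, and Gata3, of the ureteric bud lineage, had 171 ± 18.0 TPM. Elf5, a principal cell factor, had 127 ± 25.6 TPM. Hoxd8 and Hoxb6, homeobox genes of body position, had 340 ± 29.1 and 240 ± 13.7 TPM. Id3 and Id2, inhibitors of helix-loop-helix factors, had 438 ± 40.3 and 382 ± 28.9 TPM. Nfe2l1, a regulator of proteasome genes, had 349 ± 59.9 TPM, Hes1, a Notch target, had 238 ± 39.3 TPM and Hif1a, the hypoxia-inducible factor, had 199 ± 42.1 TPM. From Junb to Hif1a each factor overlapped its neighbour in the ranking, so the order of neighbours is not fixed by 4 libraries. Factors further apart could be separate: Junb, at 1297 TPM or more, lay above Tfcp2l1, at 609 TPM or less. Pax8, Hoxb7, Pax2 and Grhl2, further factors of the duct lineage chosen after their values were seen, had 127 ± 18.99, 107.9 ± 12.3, 103 ± 19.2 and 43.7 ± 10.2 TPM.

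Between libraries, the median gene had an SD of 0.24 on the log2(TPM + 1) scale, with 0.10 at the 10th and 0.50 at the 90th percentile of detected genes. Without library 1 the median SD was 0.16. The highest library was less than 2-fold above the lowest in 79.7% of the 12426 detected genes and less than 1.5-fold above it in 49.0%. The difference was 2-fold or more for 2528 genes and 4-fold or more for 246. The median SD was 0.28 for genes between 1 and 3 TPM, 0.31 between 3 and 10, 0.26 between 10 and 30, 0.20 between 30 and 100, and 0.18 both between 100 and 1000 TPM and above. The median coefficient of variation of the CPM was 25.4% in the lowest of these classes, 12.2% between 30 and 100 TPM and 19.996% at 1000 TPM or more. Counting alone would give medians of 6.52%, 1.38% and 0.358% in these 3 classes.

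The steadiest named genes with a mean of 10 TPM or more included Rab5c, a GTPase of endosomes, with 189 to 193 TPM, and Sugp2, with 17.5 to 17.9 TPM. Cish, an inhibitor of cytokine signalling, had 78.2 to 80.2 TPM, Eif3f, a translation initiation factor, had 88.99 to 91.2 TPM and the mitochondrial DNA polymerase Polg had 26.5 to 27.2 TPM. Puf60, Dguok, Anp32a and Dctn2 were also among the 10 steadiest. The highest library was at most 1.03 times the lowest in TPM, the scale by which they were picked, in each of these genes. In CPM the coefficient of variation was 0.131 for Dguok, 0.103 for Anp32a and 0.0457 for Cish.

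Of the 15 genes with the largest spread, Slc14a2 and Kap were given above. Lypd2 had 0, 2.84, 24.1 and 15.3 TPM, and without library 3 its mean was 6.05 in place of 10.6 TPM. The histone genes H1f4 (2.24, 53.01, 2.29 and 12.3 TPM), H2bc6 (2.79, 43.4, 2.72 and 11.1 TPM) and H1f3 (2.94, 28.3, 4.45 and 9.61 TPM) were all highest in library 2, and without it they averaged 5.59, 5.54 and 5.67 TPM in place of 17.4, 15.01 and 11.3 TPM. Klk1, the tissue kallikrein of the connecting tubule, had 106, 34.0, 13.6 and 78.2 TPM and followed the order of Umod, highest in library 1 and lowest in library 3. S100a6 had 75.4, 13.6, 9.98 and 6.92 TPM, Mmp2, a matrix metalloproteinase, had 50.9, 13.7, 8.15 and 6.43 TPM and Vim, the filament protein of mesenchymal cells, had 109, 19.98, 13.02 and 15.6 TPM. All 3 were highest in library 1, where the fibroblast list was highest too, and without library 1 they averaged 10.2, 9.43 and 16.2 TPM in place of 26.5, 19.8 and 39.4 TPM. The part of other cells in these values was not tested.

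Library 6 was highest in most of the detected immediate early genes, which cells transcribe within minutes of a stimulus, and of the detected circadian clock genes. The immediate early list had 18 of 22 members detected and summed to 5291, 9575, 6370 and 15612 TPM, and 15 of the 18 were highest in library 6. Over all 12426 detected genes library 6 was highest for 4365. Fos had 849, 1754, 1208 and 3540 TPM, Fosb 66.9, 206, 116 and 767 TPM, Egr1 360, 799, 399 and 1342 TPM, Jun 236, 424, 292 and 843 TPM and Junb 1297, 2083, 1489 and 2947 TPM. For each of these the order was the same: library 1 lowest, then 3, then 2, and library 6 highest. Ier2 and Zfp36, the latter chosen after its values were seen, kept that order too. Atf3, a stress-induced factor, did not, with 15.6, 76.0, 6.75 and 84.4 TPM. Without library 6 the mean of Fosb was 129.8 in place of 289 TPM.

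The clock list had 14 of 17 members detected and summed to 266, 444, 483 and 891 TPM, and 9 of the 14 were highest in library 6. Dbp, an output factor of the clock, had 21.3, 16.9, 33.5 and 212 TPM, and Tef, its relative, had 14.7, 19.7, 22.0 and 73.9 TPM. Without library 6 they averaged 23.9 and 18.8 TPM in place of 70.9 and 32.5 TPM. Nr1d1 was given above. Further clock genes, other than Bhlhe40, were chosen after their values were seen. Nr1d2 had 13.2, 23.9, 29.6 and 59.8 TPM, Per1 10.9, 22.5, 20.1 and 37.5 TPM, Per2 2.24, 4.95, 5.11 and 15.4 TPM and Per3 1.69, 2.66, 3.05 and 9.21 TPM. These genes of the negative and output limbs were all highest in library 6, and without it Per2 and Per3 averaged 4.10 and 2.47 TPM in place of 6.93 and 4.15 TPM. Arntl (Bmal1), the activator, had 16.9, 20.5, 18.1 and 9.07 TPM and its partner Npas2 had 4.79, 12.9, 6.50 and 2.23 TPM, and both were lowest in library 6. Clock, the other partner of Arntl, had 12.2, 21.01, 18.99 and 24.3 TPM and was highest in library 6. Bhlhe40, a repressor, had 66.7, 144, 187 and 136 TPM and was highest in library 3. Cry1, a repressor, had 4.37, 5.75, 3.48 and 4.56 TPM and did not separate library 6 from the rest. Scnn1b and Scnn1g were highest in this library and Sgk1 was lowest in it. Whether these go together with the clock genes was not tested.

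**Figure D4:**
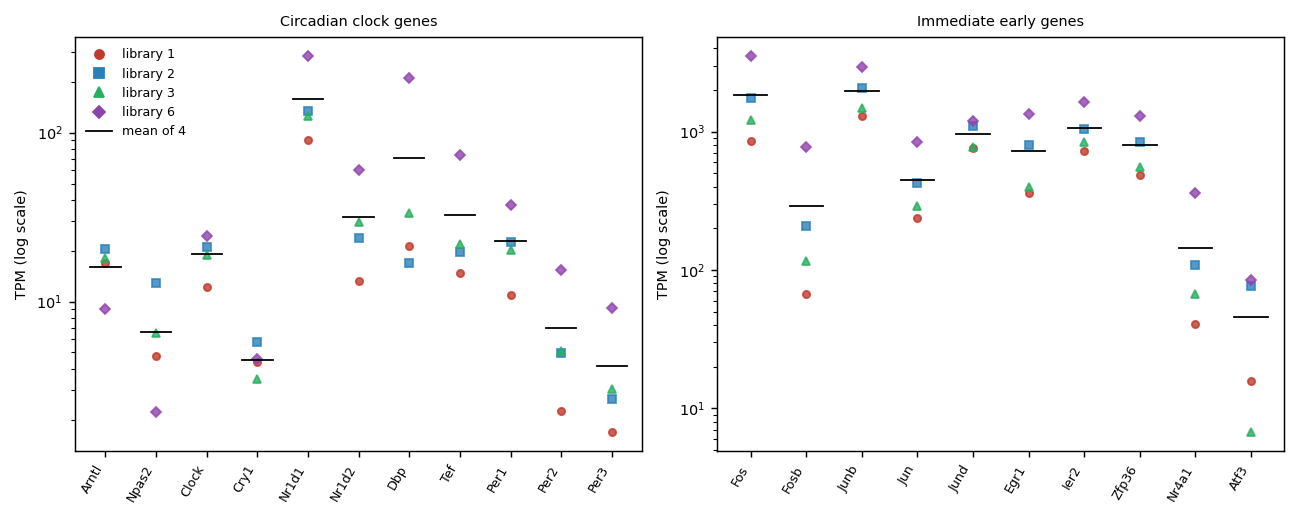
TPM (log scale) of circadian clock genes (left) and immediate early genes (right); each point is 1 of the 4 normal-salt libraries and each bar is their mean. Library 6 was highest for Dbp (212 TPM), Tef (73.9 TPM), the Per genes and Fos (3540 TPM) and lowest for Arntl (9.07 TPM) and Npas2 (2.23 TPM).

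The windows before the starts of Fos (chr12:85473640-85473889, plus strand), Tef (chr15:81802423-81802672, plus strand) and Per1 (chr11:69098699-69098948, plus strand) are shown because Fos, Tef and Per1 were each highest in library 6. Build, source and capitals are as for Aqp2, and for Tef and Per1 the window is that of the first listed of 2 RefSeq starts. For both, the window lies inside the annotated gene, which starts at 81802421 for Tef and at 69095217 for Per1.
Fos: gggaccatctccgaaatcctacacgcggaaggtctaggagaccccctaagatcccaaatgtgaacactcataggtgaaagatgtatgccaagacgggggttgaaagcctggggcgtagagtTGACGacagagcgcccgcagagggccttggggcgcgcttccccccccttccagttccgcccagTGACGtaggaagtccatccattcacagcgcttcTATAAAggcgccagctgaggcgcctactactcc
Tef: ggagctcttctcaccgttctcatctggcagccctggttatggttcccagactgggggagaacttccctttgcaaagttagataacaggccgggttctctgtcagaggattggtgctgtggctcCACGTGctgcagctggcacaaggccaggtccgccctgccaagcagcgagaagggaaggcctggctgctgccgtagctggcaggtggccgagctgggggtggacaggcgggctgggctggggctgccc
Per1: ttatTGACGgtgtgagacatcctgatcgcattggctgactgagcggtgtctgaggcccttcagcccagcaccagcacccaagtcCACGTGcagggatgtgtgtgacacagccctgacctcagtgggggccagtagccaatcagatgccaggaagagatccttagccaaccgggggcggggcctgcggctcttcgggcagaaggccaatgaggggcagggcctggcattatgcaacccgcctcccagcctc
The Fos window held TGACG 129 and 66 bases and TATAAA 33 bases before the start, the Tef window held CACGTG 127 bases before it, and the Per1 window held TGACG 246 and CACGTG 166 bases before it. Of the 21 windows of 17 matched immediate early genes, 66.7% held TGACG and 19.05% held CACGTG. Of the 20 windows of 15 matched clock genes, 30% held each of these words and 0% held TATAAA. In principal cell genes, with 19 windows of 15 matched genes, the shares were 26.3% for TGACG, 5.26% for CACGTG and 15.8% for TATAAA. These are counts of letters in small lists, beside the shares over all windows given with Aqp2.

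Library 1 differed from the others in another way. The median absolute difference of log2(TPM + 1) between library 1 and the others was 0.32 to 0.38, against 0.16 to 0.20 among libraries 2, 3 and 6. The deviation followed transcript length. Protein-coding genes were split into 4 classes of equal number by their longest annotated transcript, with median lengths of 1587, 2827, 4040 and 6293 bases. In library 1 the median deviation from the gene mean on that scale was 0.06, -0.14, -0.26 and -0.44 from the shortest to the longest class. In library 6 it was -0.06, 0.06, 0.13 and 0.22. In CPM, which carries no correction for length, the deviation of library 1 was 0.23, 0.04, -0.09 and -0.29, so long transcripts were the lower there too. Scaling by the median ratio to the gene means put library 1 at -0.18 and the others at 0.05 to 0.09 on the log2 scale. When each library was centred within 20 bins of length, an alternative added after the data were seen, library 1 differed from the others by 0.21 to 0.23 and the others among themselves by 0.16 to 0.18. Library 1 was lowest in 1655 and highest in 413 of the 2528 genes that differed 2-fold or more. Of the 246 genes that differed 4-fold or more it was lowest in 86 and highest in a larger number, while libraries 2, 3 and 6 were highest in 53, 24 and 61. Its recovered total was also the lowest of the 4.

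**Figure D5:**
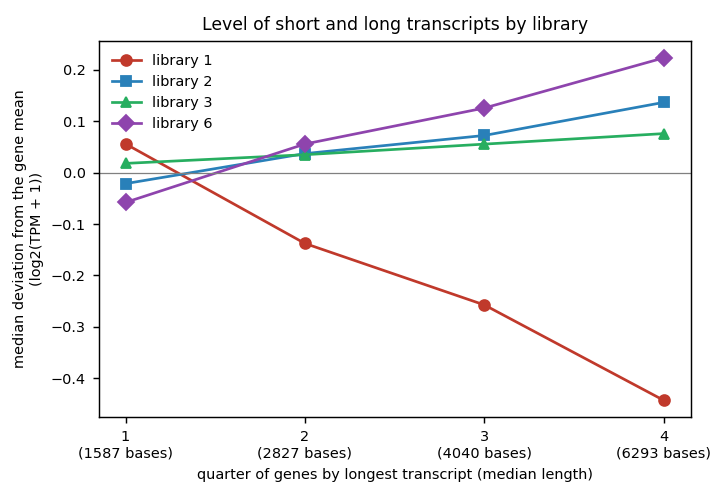
Median deviation of each library from the gene mean, on the log2(TPM + 1) scale, for protein-coding genes in 4 classes by transcript length (horizontal axis, median length in bases); 1 line per normal-salt library. Library 1 went from 0.06 in the shortest class to -0.44 in the longest, and library 6 from -0.06 to 0.22.

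Ribosomal protein and respiratory chain genes, many of which have short transcripts, were highest in library 1. The 86 ribosomal protein genes, 82 detected, summed to 53822, 45051, 49181 and 43681 TPM, and 64 of the 82 were highest in library 1. The 98 nuclear genes of oxidative phosphorylation, 90 detected, summed to 67428, 48677, 56685 and 46088 TPM, and 81 of the 90 were highest there. Cox8a, a subunit of cytochrome c oxidase, had 2348 TPM in library 1 and 1605 to 1673 TPM in the others. Over all detected genes library 1 was highest for 2316 and lowest for 6975. The part of transcript length in the low values of Met, Atp7a, Bmpr1b, Slc4a1 and the other type A markers in library 1 was not tested gene by gene.

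Heat shock genes, 12 of 12 detected, summed to 3051, 3897, 3773 and 4511 TPM, led by Hsp90ab1 (970 ± 91.0 TPM), a chaperone, and including Hspa1a, the inducible form, with 288, 456.4, 551 and 744 TPM. Tonicity response genes, 11 of 12 detected, summed to 609, 835, 941 and 803 TPM. The most abundant member of that list was Hspa1b, a heat shock gene, with 279, 368, 458 and 452 TPM, so the sum need not follow the osmolyte genes. Akr1b3, the aldose reductase that makes sorbitol, had 166, 190, 183 and 102 TPM, and Slc6a6, the taurine carrier, had 49.9 ± 12.5 TPM. Hypoxia response genes, 13 of 14 detected, summed to 2387, 2582, 2871 and 2390 TPM, with Ldha at 745 ± 138 TPM and Ndrg1 at 575 ± 101 TPM. The proteasome list summed to 3546 to 4264 TPM and the interferon-stimulated list to 91.2 to 125 TPM. The tubule injury list, 8 of 14 detected, summed to 818 to 996 TPM. Krt7 gave 470 ± 43.7 TPM of it, Spp1 (osteopontin) had 113, 246, 324 and 180 TPM, and Lcn2 had 138 ± 22.2 TPM. Cell cycle genes, 4 of 16 detected, summed to 52.6, 25.02, 13.5 and 12.2 TPM, all 4 detected members were highest in library 1, and without library 1 their mean was 16.9 in place of 25.8 TPM.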

How the data were processed

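RNA-seq libraries of 4 normal-salt mice were used of 8 in the series. The submitters' processing notes name mm10 as the build, with Trimmomatic and FastQC as tools. The aligner, counter and annotation were each not given in the sources used here. Per gene symbol the authors deposited TPM (transcripts per 1 M), summing to between 999838 and 999898 per library, which was used as given. The authors deposited CPM on a log2 scale, although named CPM, with a common floor of -5.29. Here 2 was raised to each deposited log2 value, the floor, put on the linear scale likewise, was taken off, and every library was brought to a sum of 1 M. The design had assumed linear CPM. Steps between low CPM values gave 1 count as 0.0106 to 0.0154 CPM and so the totals per library. Of values under 100 counts, 87.7% to 89.3% were whole within 0.05, so these are estimated counts and no count model was run.

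Libraries are named by column number, since the columns carry 1, 2, 3 and 6 and the sample titles 1 to 4. Genes were detected at 1 TPM in all 4 libraries, and spread is the SD of log2(TPM + 1). Neighbours in a rank were said to overlap when their ranges over 4 libraries did. The rule for named genes took the 20 most abundant nuclear protein-coding and 5 mitochondrial genes, the top 8 of each family (16 for solute carriers, G protein-coupled receptors and transcription factors), the 15 largest and 10 smallest SDs at a mean of 10 TPM or more, up to 4 members of each marker or programme list and any member of the principal and intercalated cell lists. Predicted genes, pseudogenes, ribosomal protein genes and unnamed RNAs were left out of the abundance and SD parts. Some genes that the rule names are not reported here. Any other gene is said to be chosen after its values were seen. The libraries, families and lists were chosen with earlier results of these data known. Positions and transcript lengths came from GENCODE M21 (mm10), where 53292 symbols (96.4%) were found, and promoters from RefSeq on GRCm38.p6. Python 3.11.15, numpy 2.4.6, pandas 2.3.3 and matplotlib 3.10.9 were used. The recovery of depth and of the spread was tested on simulated data.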

Additional observations from a re-analysis of the deposited data

Results flagged for a closer look

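For 242 levels named in the text or summed over a list, the gap between the highest or lowest library and its nearest neighbour was divided by the range of the 4 libraries. In 22 of them (9.09%) 1 library stood apart by Dixon's 95% criterion, which chance alone meets in about 1 in 20 groups. Many of these levels were named for their spread or after their values were seen, and sums share genes with single levels, so the share cannot be read against that figure. Library 1 was the one apart in 15, library 6 in 5, and libraries 2 and 3 in 1 each. The sums of the immediate early list and of the clock list did not meet the criterion.

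Library 1 was high in markers of interstitial and blood cells. The fibroblast list summed to 119 TPM in it (14.7 to 24.95 TPM in the others), the macrophage list to 102 TPM (34.5 to 41.3 TPM) and the erythrocyte list to 37.9 TPM (1.02 to 6.43 TPM). Vim had 109 TPM (13.02 to 19.98 TPM), S100a6 75.4 TPM (6.92 to 13.6 TPM) and Mmp2 50.9 TPM (6.43 to 13.7 TPM). It was also high in the pseudogene Gm29216 (6633 TPM, 116 to 147 TPM in the others), in Cox8a (2348 TPM, 1605 to 1673 TPM), in Atp6v1f (1408 TPM, 1109 to 1129 TPM) and in Kcnma1 (1.38 TPM, 0.144 to 0.321 TPM). It was low in Atp7a (14.9 TPM, 58.1 to 64.9 TPM in the others), Bmpr1b (32.6 TPM, 66.1 to 68.3 TPM), Abca3 (64.4 TPM, 89.3 to 92.5 TPM), Ndrg1 (425 TPM, 604 to 637 TPM) and the summed calcium and copper pumps (176 TPM, 311 to 339 TPM).

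Library 6 was high in the clock output genes Dbp (212 TPM, 16.9 to 33.5 TPM in the others) and Tef (73.9 TPM, 14.7 to 22.0 TPM), in Oxgr1 (99.5 TPM, 38.8 to 48.8 TPM), in Atp12a (8.23 TPM, 2.83 to 3.41 TPM) and in the summed chloride channels (1056 TPM, 929.7 to 930.8 TPM). Library 2 was high in Car15 (192 TPM, 29.9 to 37.7 TPM) and library 3 was low in the pseudogene Gm10925 (4911 TPM, 6153 to 6296 TPM).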

How the results depend on the processing

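The number of detected genes stayed between 9698 (5 TPM in all libraries) and 13698 (mean of 1 TPM), against 12426. The share of TPM in the 10 most abundant genes depended on mitochondrial features. It was 15.3% with them, 6.94% without the mitochondrial genome and 7.73% in CPM. Without that genome and the most abundant Gm and CT features it was 5.51% (added after seeing the data). These features include the nuclear copies and the ribosomal RNA CT010467.1. The median SD of log2(TPM + 1) was 0.24, and 0.18 to 0.26 under other pseudocounts, filters and scalings. Leaving out 1 library at a time gave 0.16 (without library 1) to 0.26 for it, 14.97% to 15.5% for the share, and 12523 to 12670 detected genes.

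Of 17 families, 10 kept their leading gene in CPM, where Atp1b1, Atp6v1a, Slc4a1, Abca3, Met, Tgfbr2 and Tfcp2l1 led instead in the other 7; all 17 kept it without the mitochondrial genome, and 15 to 16 kept it when 1 library was left out. Means moved by over 1.5-fold for 11 of 225 levels without library 1, 6 without library 2, 2 without library 3 and 6 without library 6. No paired analysis was possible because 1 group was described and the column numbers do not match those of the sample titles. No test between groups was run. With 4 mice, orders of genes whose ranges overlap are not settled, and levels far below 1 TPM rest on few counts.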
